A study of Mus musculus with 9 samples.

Results

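The genes described here are 10 markers of disease-associated microglia, namely Trem2, Tyrobp, Clec7a, Itgax, Axl, Spp1, Lgals3, Cst7, Lpl and Gpnmb. They were chosen by name from the 49315 genes of a table of read counts in mouse brain, and all 10 were among the 18492 genes that passed a filter on low counts and were tested. PolyA-selected RNA from whole brain of wild-type C57BL/6J mice was sequenced in 5 young mice (3 months by the sample labels, while the study also names 4 months) and 4 old mice (33 months). The study used males, and the labels name neither a transgene nor a treatment. It compared the ages to learn how transcripts change in the aging brain beside proteins and their modifications.

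Microglia are the resident macrophages of the brain. Near amyloid plaques, dying neurons and damaged myelin they enter a state in which genes of phagocytosis, lysosomes and lipid handling are turned on, and this state depends in part on the lipid-sensing receptor Trem2 and its adaptor Tyrobp. Not all of the genes are confined to microglia, since Axl is also made by astrocytes and vascular cells, and Spp1 and Lpl by some neurons.

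The counts on genes ranged from 14229259 to 21150439 per library. Levels are given as CPM, the counts of a gene scaled to one common library size, after correction for library size and composition with edgeR's TMM factors. The library of young replicate 4, which was also the deepest, stood apart from the other young libraries. It was the highest of the young mice in 9 of the 10 genes and above every old mouse in 4 of them, so the results of the 10 genes are given with and without it. The part of its depth in these levels was not tested. As a measure of microglial RNA, 12 markers of homeostatic microglia were used, all of them detected. Their summed level was 263 to 296 CPM in the other young mice, 363 CPM in young replicate 4 and 347 to 407 CPM in the old mice. These markers do not show which cells made the transcripts of the 10 genes. The mean log2 CPM of these markers was 4.18 ± 0.13 (SD, n = 5) in young and 4.44 ± 0.10 (SD, n = 4) in old mice (two-sided exact permutation test, p = 0.0317). In bulk tissue, more microglia and more RNA per microglial cell cannot be told apart.

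In old brain all 10 genes had a log2 fold change above 0, but the test was passed by few of them while young replicate 4 was included. A gene was called where edgeR's quasi-likelihood test gave an adjusted p under 0.05 (Benjamini-Hochberg over all genes) together with a log2 fold change of more than 0.58 in either direction. Only Gpnmb and Lgals3 were called, 2 of 10 genes, beside 2.5% of all genes tested, or 2.13% when only genes higher in old brain are counted. Axl also had an adjusted p under 0.05 with a smaller change, which made 3 of 10 genes beside 11% of all genes, or 6.09% as higher in old brain. Young replicate 4 was singled out by its levels in these same 10 genes, so p-values and counts without it depend on that choice. Without young replicate 4, 7 of 10 genes were called, beside 3.26% of the 18132 genes then tested (2.83% as higher in old brain). An adjusted p under 0.05 was reached by 9 of 10, all but Spp1, beside 11.2% of these genes (6.52% as higher). The median log2 fold change of the 10 genes was 0.86 with all mice and 1.97 without this mouse, while the median over all genes was -9.2e-05 and 0.00016. Every old mouse was above every young mouse in 2 of 10 genes, beside 6.5% of all genes, and in 8 of 10 genes when young replicate 4 was left out, beside 8.73%.

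**Figure D1:**
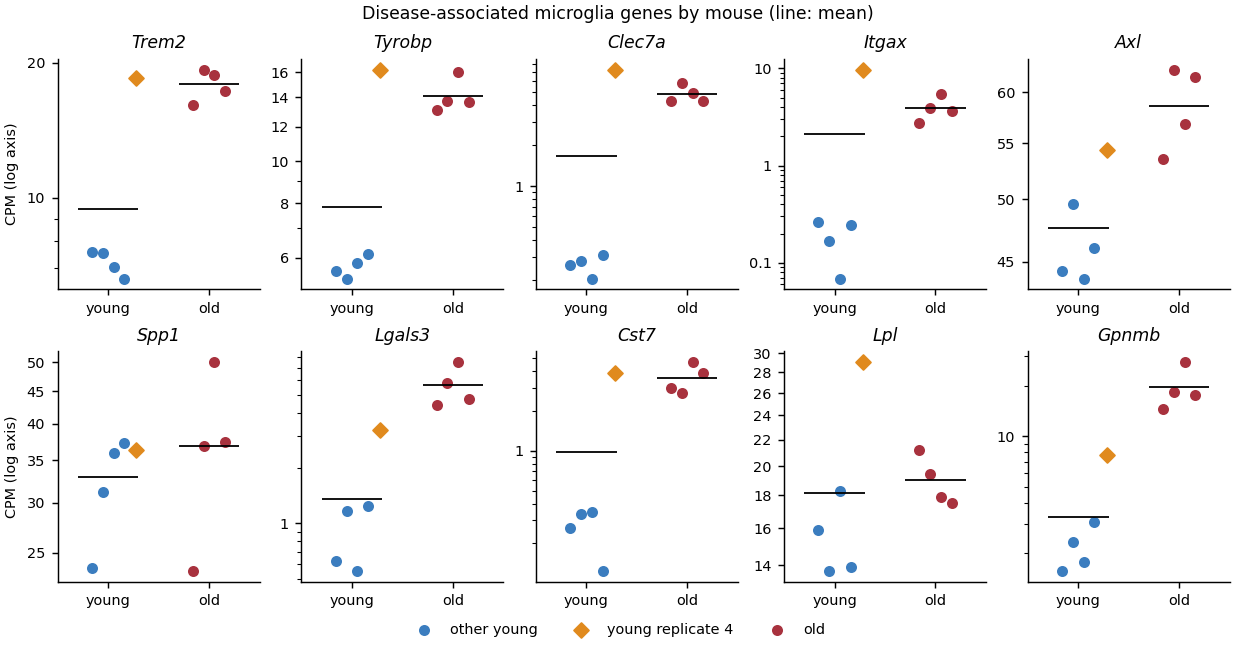
Each panel shows 1 gene in CPM on a logarithmic axis that does not start at 0, with 1 point per mouse (blue, 4 young mice; orange diamond, young replicate 4; red, 4 old mice) and a line at the mean of each age. Young replicate 4 lies among or above the old mice for Trem2, Tyrobp, Clec7a, Itgax and Cst7, and between the ages for Gpnmb and Lgals3.

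Trem2 and Tyrobp form a receptor complex in which Trem2 binds lipids, lipoproteins and apoptotic cells and Tyrobp carries the signal to the kinase Syk. Trem2 (chr17:48346401-48354147, plus strand; all gene positions are those of GENCODE M21 on GRCm38) was at 7.58, 7.52, 7.01, 18.5 and 6.61 CPM in young replicates 1 to 5 and at 16.1, 19.3, 18.8 and 17.3 CPM in old replicates 1, 3, 4 and 5. Tyrobp (chr7:30413760-30417585, plus strand) was at 5.59, 5.37, 5.84, 16.2 and 6.12 CPM in the young and at 13.1, 13.8, 16.03 and 13.7 CPM in the old mice. For both genes 4 young mice lay close together and below all old mice, and young replicate 4 lay with the old mice or above them. With all mice the log2 fold change was 0.89 (standard error 0.33, adjusted p = 0.136) for Trem2 and 0.83 (standard error 0.36, adjusted p = 0.207) for Tyrobp by edgeR's quasi-likelihood test. Without young replicate 4 both receptor and adaptor rose, by 1.31 (standard error 0.089, adjusted p = 8.6e-08, edgeR) and 1.31 (standard error 0.098, adjusted p = 2.4e-07, edgeR), respectively.

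Clec7a, also known as Dectin-1, is a receptor for beta-glucans that also signals through Syk, and Itgax encodes the integrin alpha chain CD11c, which pairs with Itgb2. Both were near the limit of detection in 4 of the young mice. Clec7a (chr6:129461591-129472779, minus strand) had 5, 5, 3, 151 and 5 counts in young replicates 1 to 5, or 0.261, 0.277, 0.206, 7.29 and 0.309 CPM, and 80, 82, 90 and 73 counts in the old mice, or 4.25, 5.78, 4.92 and 4.28 CPM. Itgax (chr7:128129547-128150657, plus strand) had 5, 3, 1, 201 and 4 counts in the young mice, or 0.261, 0.166, 0.0687, 9.71 and 0.247 CPM, and 52, 56, 99 and 62 counts in the old mice, or 2.76, 3.95, 5.42 and 3.64 CPM. Young replicate 4 thus held more of both transcripts than any old mouse, 27.7-fold (Clec7a) and 52.3-fold (Itgax) the mean of the other young mice. With all mice the log2 fold changes, 1.40 (standard error 0.99, adjusted p = 0.435) and 0.80 (standard error 1.16, adjusted p = 0.723), did not pass edgeR's quasi-likelihood test. Without this mouse they were 4.14 (standard error 0.24, adjusted p = 5.3e-09, edgeR) for Clec7a and 4.32 (standard error 0.33, adjusted p = 2.8e-07, edgeR) for Itgax, 2 of the 3 largest rises in the group. Dendritic cells also express Itgax. Of 6 dendritic cell markers, Xcr1, Cd209a, Clec9a and Ccr7 did not exceed 0.705 CPM in any library and did not pass the filter on low counts. Zbtb46 was at -0.01 on the log2 scale (edgeR, adjusted p = 0.957) and Flt3 fell by 0.32 (edgeR, adjusted p = 0.0144). Over all mice Zbtb46 was at 17.9 to 27.3 CPM and Flt3 at 15.9 to 24.4 CPM, above Itgax in every mouse. The markers of this list thus differed widely in level, and which cells made Zbtb46 and Flt3 was not tested. The part of dendritic cells in the level of Itgax was not tested.

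Axl is a receptor tyrosine kinase of the TAM family that recognizes phosphatidylserine on dying cells through the bridging protein Gas6. The gene lies at chr7:25757273-25788705 on the minus strand. Its level was 44.3, 49.6, 43.7, 54.3 and 46.1 CPM in young replicates 1 to 5 and 53.6, 62.3, 56.8 and 61.6 CPM in old replicates 1, 3, 4 and 5. The old mice lay above all young mice except young replicate 4, which exceeded old replicate 1. Axl rose by 0.29 in log2 terms (standard error 0.065; edgeR, adjusted p = 0.00851), and by 0.35 without young replicate 4 (standard error 0.058; edgeR, adjusted p = 0.000803). On log2(TPM + 1), where the median over all genes was -0.14, the change was 0.13 (limma, adjusted p = 0.677), while the adjusted p over all alternatives ranged from 1.8e-06 to that value.

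Gpnmb, a transmembrane glycoprotein of lysosomes and phagosomes, showed the largest change with all mice. The gene (chr6:49036546-49070929, plus strand) was at 1.57, 2.32, 1.79, 7.68 and 3.09 CPM in young replicates 1 to 5 and at 14.6, 18.4, 27.7 and 17.6 CPM in old replicates 1, 3, 4 and 5. Here young replicate 4 was the highest young mouse but stayed below every old mouse. Gpnmb rose by 2.52 in log2 terms (standard error 0.45; edgeR, adjusted p = 0.0132) and by 3.16 without young replicate 4 (standard error 0.28, adjusted p = 0.000323, edgeR), and it was called whichever mouse was left out.

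Lgals3 encodes galectin-3, a secreted lectin that binds glycans and damaged lysosomes. The gene (chr14:47367751-47386160, plus strand) was at 0.627, 1.16, 0.550, 3.24 and 1.24 CPM in the young mice and at 4.41, 5.78, 7.55 and 4.75 CPM in the old mice, again with no overlap between the ages. Lgals3 rose by 1.99 (standard error 0.44, adjusted p = 0.0229, edgeR) and by 2.64 without young replicate 4 (standard error 0.25, adjusted p = 5.9e-06, edgeR). The call was lost in 4 of 9 fits that each left out a mouse, with an adjusted p of 0.0535 without young replicate 2, 0.0616 without young replicate 5, 0.0539 without old replicate 3 and 0.0533 without old replicate 4. Gpnmb and Lgals3 were highest in old replicate 4, in which 9 markers of monocytes and neutrophils summed to 93.2 CPM, against 3.74 to 6.75 CPM in the other old, 1.62 to 2.41 CPM in 4 young mice and 2.56 CPM in young replicate 4. Of these markers S100a8, S100a9 and Ngp were tested, 3 of 9, and 0 had an adjusted p under 0.05 in edgeR (3 unadjusted) or in DESeq2. Without old replicate 4 the log2 fold change was 2.31 for Gpnmb (adjusted p = 0.0336, edgeR) and 1.80 for Lgals3 (adjusted p = 0.0533, edgeR).

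Cst7 encodes cystatin F, an inhibitor of cysteine cathepsins in the lysosome. The gene (chr2:150570415-150578944, plus strand) had 5, 6, 5, 80 and 2 counts in the young mice, or 0.261, 0.332, 0.344, 3.86 and 0.124 CPM, and 56, 39, 86 and 66 counts in the old mice, or 2.97, 2.75, 4.71 and 3.87 CPM. Young replicate 4 lay within the range of the old mice, and the other young mice lay far below it. The log2 fold change was 1.75 with all mice (standard error 0.83, adjusted p = 0.241, edgeR) and Cst7 rose by 3.73 without young replicate 4 (standard error 0.30, adjusted p = 4.4e-07, edgeR).

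The other secreted products, Lpl and Spp1, had the smallest log2 fold changes of the 10 genes. Lpl, the lipoprotein lipase that releases fatty acids from triglycerides (chr8:68880491-68907448, plus strand), was at 15.9, 13.7, 18.3, 29.1 and 13.9 CPM in the young and at 21.2, 19.5, 17.9 and 17.5 CPM in the old mice. Young replicate 4 had the highest level of all 9 mice, and the other young mice overlapped with the old. The log2 fold change was 0.06 (standard error 0.24, adjusted p = 0.916, edgeR), and Lpl rose by 0.30 without young replicate 4 (standard error 0.094, adjusted p = 0.0454, edgeR). Spp1 encodes osteopontin, a secreted ligand of integrins and Cd44. The gene (chr5:104435118-104441050, plus strand) was at 23.6, 31.2, 35.9, 36.3 and 37.2 CPM in the young and at 23.4, 36.8, 50.1 and 37.4 CPM in the old mice, so that the ages overlapped and both the lowest and the highest mouse were old. Its log2 fold change was 0.17 (standard error 0.23, adjusted p = 0.707, edgeR) and 0.21 without young replicate 4 (standard error 0.26, adjusted p = 0.684, edgeR). Spp1 shares 309 exon bases with Gm42793 on the same strand, and no other gene of the 10 shares exon bases with a neighbor.

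**Figure D2:**
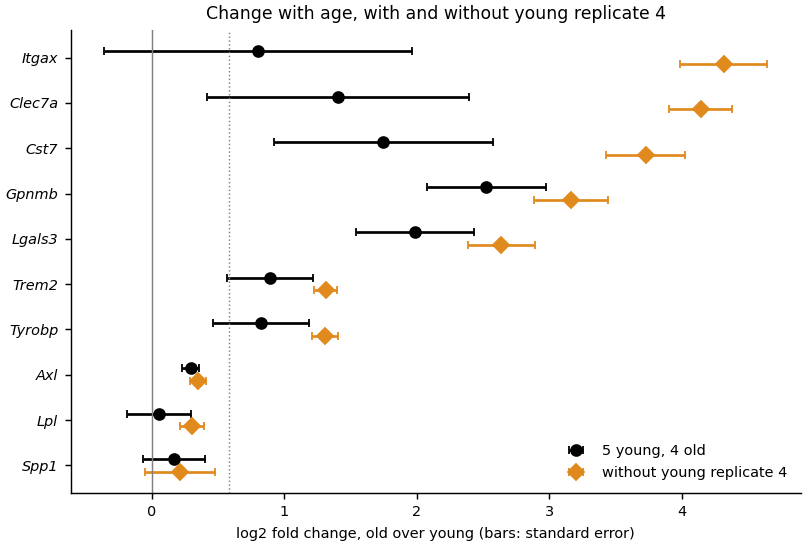
Points show the log2 fold change of each gene, old over young, with its standard error as a bar, for all 9 mice (black) and without young replicate 4 (orange); the dotted line marks the threshold of 0.58. Leaving out this mouse moves Itgax from 0.80 to 4.32 and narrows its bar from 1.16 to 0.33, while Axl, Lpl and Spp1 stay under the threshold in both fits.

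The 10 genes did not take the same position in young replicate 4. On a log2 scale on which 0 is the mean of the other young mice and 1 the mean of the old mice, this mouse was at 1.35 for Itgax, 1.16 for Clec7a and Tyrobp, and 1.04 for Cst7 and Trem2. It was at 0.71 for Lgals3, 0.70 for Axl and 0.58 for Gpnmb. For Lpl it was at 3.03 and for Spp1 at 1.15, on a scale that is short for both, since the ages differed little. This mouse was thus at or above the mean of the old mice for 7 of the 10 genes and between the ages for Lgals3, Axl and Gpnmb. These positions rest on 1 mouse and were not tested. Among the old mice, replicate 4 had the highest level of 6 genes and replicate 1 the lowest of 8. The correlation of each gene over the 9 libraries with the mean of all 10 standardized genes, to which it contributes itself, was 0.91 to 0.99 for 8 of them, 0.66 for Lpl and 0.44 for Spp1, and the libraries share both the difference in age and young replicate 4.

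To relate each gene to the amount of microglial RNA in the same brain, the mean log2 CPM of the 12 homeostatic markers was subtracted from its log2 CPM. Relative to these markers Gpnmb was at -2.66 ± 0.79 in young and -0.18 ± 0.42 in old mice (SD, n = 5 and n = 4), a difference of 2.47 (two-sided exact permutation test, p = 0.0159). By the same exact test the difference was 2.57 for Clec7a (p = 0.0476), 2.49 for Itgax (p = 0.0635), 2.34 for Cst7 (p = 0.0397), 1.92 for Lgals3 (p = 0.0159), 0.76 for Trem2 (p = 0.0397) and 0.72 for Tyrobp (p = 0.0556). It was 0.03 for Axl (exact p = 0.460), -0.13 for Spp1 (exact p = 0.587) and -0.15 for Lpl (exact p = 0.516). These were the 10 tests of the main setting, and 5 of 10 had an unadjusted p under 0.05. The same test was repeated as an alternative with pan-microglial markers and with each mouse left out. After Benjamini-Hochberg adjustment for the 10 tests 0 of 10 passed, with an adjusted p of at least 0.0794 in the exact permutation test, whose smallest p is 0.00794 over 126 splits. Without young replicate 4, the same 7 genes that had differences over 0.7 each had an adjusted p of 0.0408 in the exact permutation test and were higher in all old than in all of the remaining young mice, by 0.97 (Tyrobp) to 3.45 (Itgax). The markers themselves differed between the ages by 0.32 without this mouse (exact permutation test, p = 0.0286, the smallest that 70 splits allow).

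**Figure D3:**
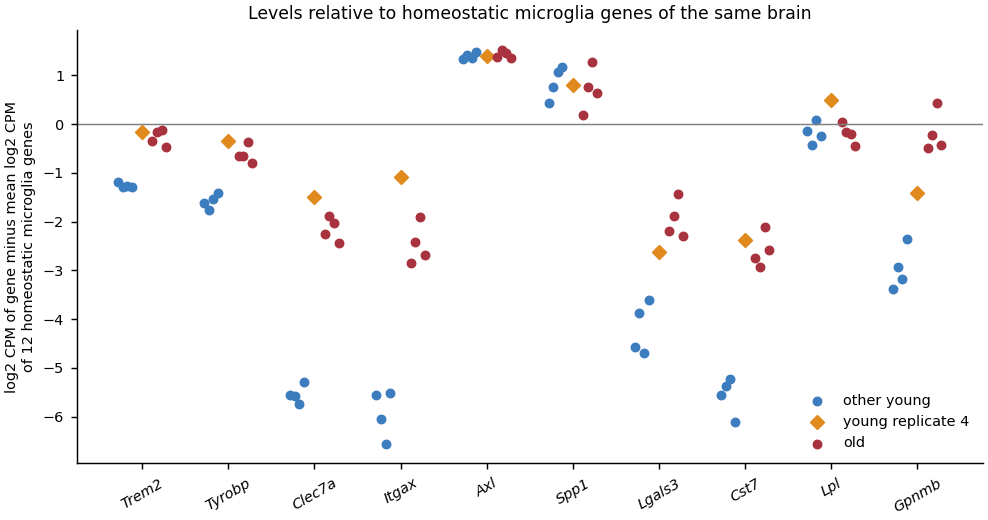
The vertical axis gives the log2 CPM of each gene minus the mean log2 CPM of 12 homeostatic microglia markers in the same library, with 1 point per mouse (blue, 4 young mice; orange diamond, young replicate 4; red, 4 old mice). For Clec7a, Itgax and Cst7 the blue points lie between -6.56 and -5.23, and the red points between -2.93 and -1.89, while for Axl, Spp1 and Lpl the colors overlap.

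Levels per gene length were compared with the deposited TPM values, which order the genes within a brain by the length assigned to each. Among these genes the annotated exons merge to 667 (Tyrobp) to 10478 bases (Lpl), whichever transcripts the brain makes. The places below depend on the assigned lengths, and the lengths of the transcripts in brain were not measured. In the 4 young mice other than replicate 4, the median was 49.6 TPM for Spp1, 24.6 for Axl, 21.7 for Tyrobp, 4.03 for Trem2, 3.74 for Lpl, 1.25 for Lgals3, 0.924 for Gpnmb, 0.791 for Cst7, 0.267 for Clec7a and 0.102 for Itgax. Neighbors in this order overlapped between mice for Axl and Tyrobp, for Trem2 and Lpl, and among Lgals3, Gpnmb and Cst7. In the old mice the order by median was Spp1 (50.5 TPM), Tyrobp (49.8), Axl (26.2), Cst7 (8.59), Trem2 (8.39), Lgals3 (6.30), Gpnmb (6.18), Clec7a (4.14), Lpl (3.95) and Itgax (1.76). There the ranges of Spp1 and Tyrobp overlapped, as did those of Cst7, Trem2, Lgals3 and Gpnmb, and those of Clec7a and Lpl. By TPM, Cst7 thus moved from the eighth to the fourth place and Lpl from the fifth to the ninth, while Spp1 stayed first and Itgax last. In CPM, Lpl in the old mice, at 17.5 to 21.2, was above Cst7, at 2.75 to 4.71. Tyrobp was above its partner Trem2 in TPM in every mouse, from 20.6 to 54.2 TPM against 3.00 to 8.57 TPM. In CPM, which is not divided by length, Trem2 was instead the higher of the pair in every mouse. The annotated exons merge to 667 bases for Tyrobp and 4946 bases for Trem2. Which of the pair has more transcripts thus depends on the length assigned, and was not tested.

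**Figure D4:**
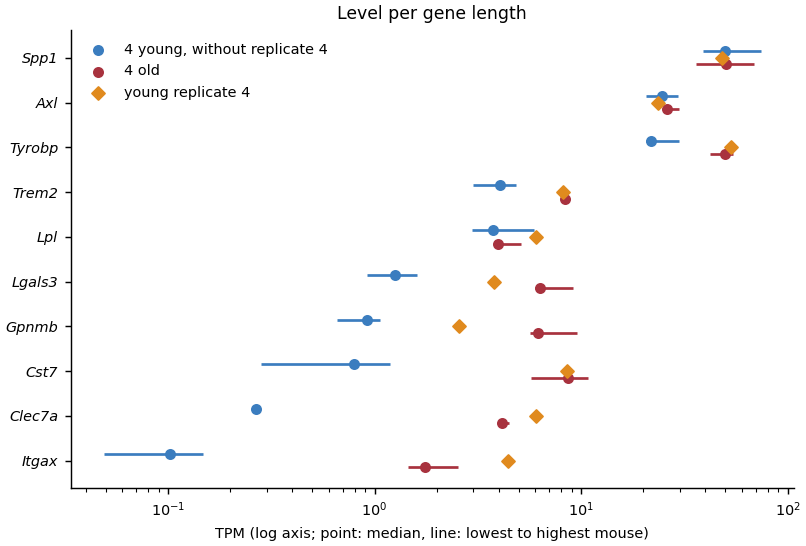
The horizontal axis gives TPM on a logarithmic scale, with the median (point) and the range (line) of 4 young mice (blue) and 4 old mice (red), and young replicate 4 as an orange diamond. The genes are ordered by the young median, from 49.6 TPM for Spp1 to 0.102 TPM for Itgax, and outside young replicate 4 the ages separate most for the genes at the lower end.

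The promoters of Itgax, Clec7a and Cst7, which had the largest log2 fold changes without young replicate 4, and of Trem2 are shown since these transcripts rose together when that mouse was left out, although none of them passed the test with all mice. Each line holds the 250 bases before the transcript start in RefSeq (GRCm38.p6), 5′ to 3′ on the gene's strand, with letters of a searched motif in capitals. They lie at chr7:128129300-128129549 on the plus strand for Itgax, chr6:129472780-129473029 on the minus strand for Clec7a, chr2:150570165-150570414 on the plus strand for Cst7 and chr17:48346151-48346400 on the plus strand for Trem2.
Itgax: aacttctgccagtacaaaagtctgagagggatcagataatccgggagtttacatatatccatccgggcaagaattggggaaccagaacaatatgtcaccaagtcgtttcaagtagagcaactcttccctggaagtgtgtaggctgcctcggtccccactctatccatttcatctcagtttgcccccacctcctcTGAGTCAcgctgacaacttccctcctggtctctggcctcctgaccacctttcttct
Clec7a: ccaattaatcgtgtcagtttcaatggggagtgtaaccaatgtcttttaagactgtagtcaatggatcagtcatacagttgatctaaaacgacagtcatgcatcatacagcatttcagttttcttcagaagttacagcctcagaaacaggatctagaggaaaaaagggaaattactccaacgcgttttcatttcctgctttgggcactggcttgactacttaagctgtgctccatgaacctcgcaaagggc
Cst7: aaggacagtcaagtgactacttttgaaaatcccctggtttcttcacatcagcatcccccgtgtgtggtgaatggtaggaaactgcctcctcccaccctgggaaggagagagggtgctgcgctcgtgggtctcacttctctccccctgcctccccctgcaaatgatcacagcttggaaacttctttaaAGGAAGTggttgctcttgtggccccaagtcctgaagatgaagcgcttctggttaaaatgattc
Trem2: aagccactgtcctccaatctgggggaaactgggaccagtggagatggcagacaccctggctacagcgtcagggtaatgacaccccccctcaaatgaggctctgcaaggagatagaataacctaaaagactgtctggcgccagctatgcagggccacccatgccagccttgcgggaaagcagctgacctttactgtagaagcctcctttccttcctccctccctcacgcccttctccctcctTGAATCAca
RefSeq promoters were matched for 8 of the 10 genes, all but Lpl and Tyrobp. All motifs were searched on both strands. The pattern TGANTCA, searched for AP-1 with any base in the middle, was found in Itgax (TGAGTCA) and Trem2 (TGAATCA). These were 2 of 8 genes, beside 7.82% of 27025 genes with a listed start. A stricter pattern with fewer bases in the middle was not searched. The core AGGAAGT, bound by the macrophage factor PU.1, was found in Cst7 and Spp1, 2 of 8, beside 8.8% of genes. The E-box CACGTG, the site of MITF and TFE factors, and CATGTG were found in 0 of 8 genes, beside 6.86% and 13.8% of genes, and TATAAA in Spp1, beside 14.3%. A match of letters describes the sequence and does not show binding.

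Of 32 other genes named for the same microglial state, 31 were in the table and 29 were tested. With all mice 9 of the 29 rose and 1 fell (6.09% of all genes were higher at this adjusted p), with a median log2 fold change of 0.42, and without young replicate 4, 18 rose and 1 fell (6.52% higher over all genes). Lyz2, which encodes lysozyme, had the largest change, from 5.43 to 6.98 CPM in 4 young mice and 23.5 CPM in young replicate 4 to 29.3 to 49.0 CPM in the old mice (log2 fold change 1.90, standard error 0.48, adjusted p = 0.0476, edgeR). The adjusted p of Lyz2 was over 0.05 in each fit that left out a mouse other than young replicate 4, reaching 0.111, and was 9.5e-05 without that mouse. The actin-capping protein gene Capg rose by 1.25 (adjusted p = 0.0171, edgeR), the apolipoprotein gene Apoc1 by 1.11 (adjusted p = 0.00426), the lysosomal membrane protein gene Cd68 by 1.06 (adjusted p = 0.0175) and Apoe, a lipid carrier made mostly by astrocytes in the healthy brain, by 0.47 (adjusted p = 0.00468). Of these, Apoc1 had at most 28 counts in a library. Apoc1 was near the young level in young replicate 4, with 0.725 CPM there, 0.523 to 0.687 CPM in the remaining young mice and 1.23 to 1.49 CPM at the old age. When young replicate 4 was left out, these changes were 1.63 for Capg, 1.17 for Apoc1, 1.36 for Cd68 and 0.55 for Apoe, each with an adjusted p of at most 0.00499 in edgeR. The gene that fell was Fabp5, a fatty acid binding protein gene, by 0.21 (adjusted p = 0.0380, edgeR), and by 0.22 without this mouse (adjusted p = 0.0400).

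Among the genes of Trem2 and Clec7a signaling, 4 of 13 tested rose and 0 fell (6.09% of all genes were higher), with 9 at an unadjusted p under 0.05 in edgeR and 4 at an adjusted p under 0.05 in DESeq2, and a median log2 fold change of 0.45. Without young replicate 4, 8 rose (6.52% over all genes). Treml2, which encodes a relative of Trem2, had at most 34 counts in a library and rose by 2.19 (standard error 0.46, adjusted p = 0.00638, edgeR), from 0 to 0.261 CPM in the other young mice and 0.531 CPM in young replicate 4 to 0.880 to 1.86 CPM in old brain. Plcg2, the phospholipase downstream of Syk, rose by 0.58 (adjusted p = 0.0109, edgeR) and Cd33, an inhibitory lectin receptor, by 0.50 (adjusted p = 0.00911). Without young replicate 4 the changes were 2.78 for Treml2 (edgeR, adjusted p = 0.00118), 0.71 for Plcg2 (adjusted p = 0.00139) and 0.60 for Cd33 (adjusted p = 0.000919). Ms4a6d, from a gene cluster linked to Trem2 levels, had at most 38 counts in a library and rose by 1.03 (adjusted p = 0.0343, edgeR). Its adjusted p in edgeR exceeded 0.05, up to 0.0927, without young replicates 1, 2, 3 or 5 or old replicates 1 or 4. Without young replicate 4 it rose by 1.47 (adjusted p = 0.00129, edgeR). The kinase Syk itself was at 0.44 on the log2 scale with all mice (edgeR, adjusted p = 0.0555) and rose by 0.55 without young replicate 4 (edgeR, adjusted p = 0.0161). The sheddases Adam10 and Adam17, which cleave Trem2, were at 0.04 and -0.03 (adjusted p = 0.507 and 0.769), and at 0.05 and -0.02 without this mouse (adjusted p = 0.547 and 0.855).

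The partner genes are those for partners of the 10 products, together with genes for related proteins such as other galectins and cystatins. Of the 24 tested, 9 rose and 1 fell, with a median log2 fold change of 0.32 (6.09% of all genes were higher). Without young replicate 4, 12 rose and 1 fell (6.52% over all genes). Lgals3bp, which encodes a glycoprotein ligand of galectin-3, rose most, by 1.44 (standard error 0.14, adjusted p = 0.000278, edgeR), from 13.95 to 14.9 CPM in 4 young mice and 20.4 CPM in young replicate 4 to 36.8 to 52.3 CPM in the old mice. The integrin chain Itgb2, the partner of Itgax, rose by 1.14 (adjusted p = 0.0301, edgeR), with an adjusted p over 0.05, up to 0.0727, without young replicates 1, 2, 3 or 5 or old replicates 1, 3 or 5. The galectin gene Lgals9 rose by 1.03 (adjusted p = 0.000154, edgeR) and the osteopontin receptor gene Cd44 by 0.60 (adjusted p = 0.0115). Of the other TAM receptors, Mertk rose by 0.67 (adjusted p = 0.0128, edgeR) and Tyro3 was at -0.04 (adjusted p = 0.675), while of their ligands Pros1 rose by 0.55 (adjusted p = 0.00442) and Gas6 was at -0.07 (adjusted p = 0.341). The integrin chain Itga9, a receptor of osteopontin, fell by 0.34 (adjusted p = 0.0221, edgeR). With young replicate 4 left out, the changes were 1.56 for Lgals3bp, 1.42 for Itgb2, 1.11 for Lgals9, 0.69 for Cd44, 0.81 for Mertk and 0.67 for Pros1, each with an adjusted p of at most 0.00510 in edgeR. Itga9 then fell by 0.33 (edgeR, adjusted p = 0.0393), and Tyro3 and Gas6 were at -0.04 and -0.07 (edgeR, adjusted p = 0.721 and 0.389).

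Of the homeostatic microglia genes 2 of 12 rose (6.09% of all genes were higher), with a median log2 fold change of 0.20, and 5 of 12 rose without young replicate 4 (6.52% over all genes), with a median of 0.32. Tmem119 rose by 0.53 (standard error 0.078, adjusted p = 0.000369, edgeR) and Selplg by 0.45 (standard error 0.068, adjusted p = 0.000463, edgeR), and without young replicate 4 they rose by 0.48 and 0.51 (adjusted p = 0.000396 and 7.5e-05, edgeR). Tmem119, a surface protein of homeostatic microglia, was lowest among all mice in young replicate 4, with 11.6 CPM there, 13.3 to 15.2 CPM in the remaining young mice and 18.7 to 20.5 CPM in old brain. Macrophages at the borders of the brain also express several of the 10 genes. Of 7 border macrophage markers, Ms4a7, F13a1 and Cd163 rose, by 1.90, 1.13 and 0.69 (adjusted p = 0.0199, 0.00214 and 0.0189, edgeR). Ms4a7 had at most 29 counts in a library. Without young replicate 4, 2 of the 6 tested rose, namely F13a1 by 1.23 and Cd163 by 0.70 (adjusted p = 0.00141 and 0.0270, edgeR), Ms4a7 not being tested there. The sum of the 7 markers was 9.18 to 10.2 CPM in the other young mice, 11.2 CPM in young replicate 4 and 13.3 to 21.4 CPM in the old mice. It thus did not reach the old level in young replicate 4. The part of border macrophages and of blood cells in the differences between the ages was not tested.

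**Figure D5:**
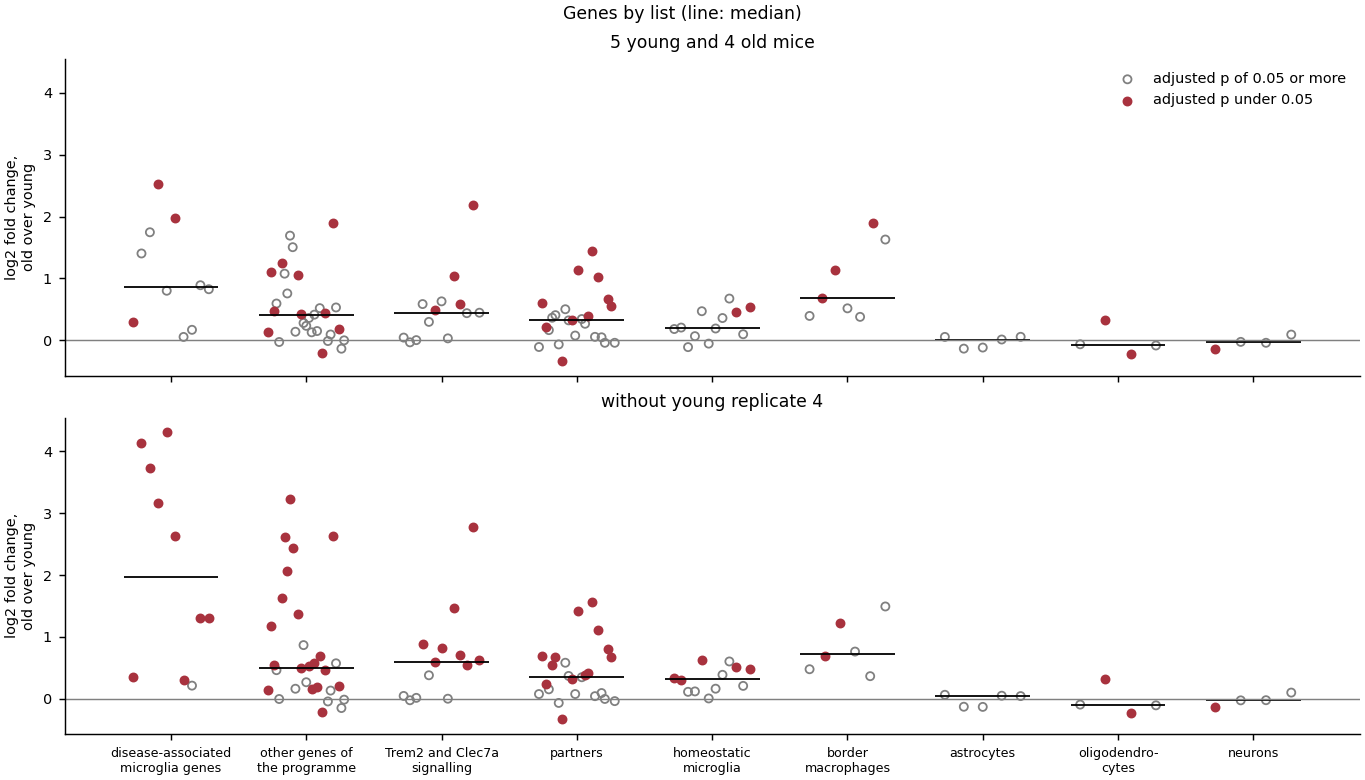
Each point is 1 tested gene, with its log2 fold change (old over young) on the vertical axis for all 9 mice (top) and without young replicate 4 (bottom), filled red where edgeR's adjusted p was under 0.05; lines mark the medians. The median of the disease-associated genes moves from 0.86 to 1.97 and that of the homeostatic genes from 0.20 to 0.32, and those of astrocyte, oligodendrocyte and neuron markers lie at 0.01, -0.07 and -0.03 with all mice.

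The genes whose log2 CPM over the 9 libraries was most like the mean of the 10 standardized genes were sought among 16542 tested genes. They were Nckap1l (Pearson's r = 0.992), Gfap (0.990), Serpina3n (0.989), C1qa (0.989), Cebpa (0.988), Ctsz (0.986), Laptm5 (0.984), Cd52 (0.983), Ctsa (0.982) and Slc37a2 (0.982), and r was 0.985 to 0.995 without young replicate 4. Being chosen as the highest, these values are a description, and the libraries share the difference in age. Nckap1l, C1qa, Laptm5 and Cd52 are genes of microglia and other leukocytes, whereas Gfap and Serpina3n are markers of reactive astrocytes. Gfap was at 191 to 221 CPM in 4 young mice, 514 CPM in young replicate 4 and 434 to 638 CPM in old brain. The levels of Serpina3n were 12.8 to 16.6, 57.8 and 55.6 to 73.7 CPM, respectively. Their log2 fold changes with all mice were 1.07 and 1.43 (edgeR, adjusted p = 0.0911 and 0.115), and without young replicate 4 they rose by 1.45 and 2.16 (edgeR, adjusted p = 0.000633 and 8.3e-07). With all mice, Ctsa and Slc37a2 were the only 2 of the 10 genes most alike with an adjusted p under 0.05.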

How the data were processed

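RNA-seq counts from 5 young and 4 old whole brains were analyzed. According to the study's methods, the authors trimmed reads with Trimmomatic, aligned them to GRCm38 with STAR and used featureCounts for reads that mapped uniquely to exons. The labels name a polyA selection with ERCC spike-in, and the study's methods state that counting took strand into account where libraries were stranded, without naming the library type. The deposited counts are whole numbers without normalization. In the deposited normalized counts, a signal used only in an alternative, the authors divided each library by a size factor, and the deposited TPM values are scaled per length by the authors. Each table held 1 further column, headed as old replicate 2, that matched no sample used here and was left out, so the old group has 4 mice, fewer than the study names.

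Symbols from GENCODE M21 matched 49056 of 49315 gene IDs. Low genes were removed by filterByExpr in edgeR (at least 10 counts in enough libraries and 15 in total). Libraries were normalized with TMM and the ages compared with edgeR's quasi-likelihood test (robust setting), with Benjamini-Hochberg adjustment over all 18492 genes tested. The robust setting was kept after values with and without it were seen. Log2 CPM used a prior count of 2. Computations ran in edgeR 4.0.16, DESeq2 1.42.0 and limma 3.58.1 under R 4.3.3. Counts were also simulated for this comparison, and there a call meant an adjusted p under 0.05 without the fold threshold. With a log2 difference of 1 given to 200 of the 18492 genes, 87.5% of these 200 were called. Of the calls, 6.91% were unchanged genes, and 0 calls were made with no gene changed. Recovery of genes in which 1 mouse stands apart, as young replicate 4 does, was not tested. Libraries of 1 age differed beyond counting noise (chi-square per degree of freedom at least 4.04), so none was counted as a copy of another; the study names them biological replicates.

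The 10 genes and all lists were chosen with earlier results of these data known. Named were all 10 genes, up to 5 genes per related list with the largest change at an adjusted p under 0.05, and the 10 genes most alike; other genes (markers of dendritic cells, border macrophages, monocytes and neutrophils, Fabp5, Syk, Adam10, Adam17, Tyro3, Gas6, Pros1, Itga9) were named after their values were seen. Alternatives were other size factors, filters, thresholds and scales, DESeq2, a replicate block and each mouse left out.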

Additional observations from a re-analysis of the deposited data

Results flagged for a closer look

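Of 66 sets of values of 1 age (a gene, a gene relative to the homeostatic markers, or the mean of a list), 14 held a mouse far from the others of its age by Dixon's ratio, the gap to the nearest mouse over the whole range. Chance flags about 1 in 20, or 3.3 sets, and the sets share genes and libraries. Young replicate 4 had already been singled out by its levels in these same genes, so the number of flagged sets cannot test chance and only describes this mouse. Of the 14, 13 came from young replicate 4, each time as the highest young mouse. In log2 CPM the ratio was 0.820 for Itgax, 0.912 for Clec7a, 0.768 for Cst7, 0.868 for Trem2 and 0.883 for Tyrobp. The same 5 genes stood apart relative to the homeostatic microglia markers, with 0.809 for Itgax, 0.891 for Clec7a, 0.764 for Cst7, 0.911 for Trem2 and 0.747 for Tyrobp, where this mouse was at -1.08, -1.49, -2.39, -0.16 and -0.35 on the log2 scale. For the mean log2 CPM of lists, the ratio was 0.921 for the other genes of the disease-associated state (4.72 against 4.02 to 4.07 in the other young mice), 0.775 for the partner genes (4.34 against 4.001 to 4.08) and 0.745 for pan-microglial markers (4.21 against 3.54 to 3.71). Young replicate 2 had the lowest mean of the dendritic cell markers Flt3 and Zbtb46 (4.32 against 4.52 to 4.58, ratio 0.774).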

How the results depend on the processing

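The number of the 10 genes called, 2 with all mice, ranged from 1 to 7 when each mouse was left out, with 7 without young replicate 4 and 1, namely Gpnmb, without young replicate 2, young replicate 5, old replicate 3 or old replicate 4. It was 4 with limma on log2(TPM + 1) and on log2(TPM + 0.1), where Trem2 and Tyrobp were added and where 90.8% and 91.3% of genes had an infinite prior degree of freedom, so that p there rests on the fitted trend. Without edgeR's robust setting, an alternative added after the data were seen, 3 were called (Trem2, adjusted p = 0.0306). Over the alternatives other than leaving out a mouse, the adjusted p ranged from 0.00093 to 0.226 for Trem2 and from 0.00017 to 0.330 for Tyrobp. DESeq2 called 2 and gave no adjusted p for Itgax and Clec7a. Over all genes 463 were called, 707 without a filter, 2031 without the fold threshold, and 379 to 592 with a mouse left out. Relative to the homeostatic markers, the number of genes under the threshold was 0 to 7 with a mouse left out, 7 only without young replicate 4. A log2 fold change of Lpl below 0 was given by TPM (-0.043 and -0.044) and without young replicate 2 (-0.030), young replicate 5 (-0.022) or old replicate 1 (-0.00073), in a range of -0.030 to 0.30 over the mice left out. For Spp1 it was below 0 on TPM (-0.028 and -0.029) and without old replicate 4 (-0.019), in a range of -0.019 to 0.35. The median over all genes was -0.14 and -0.16 on these TPM scales. Relative to the markers, Axl turned to -0.19 with pan-microglial markers, and Spp1 to 0.047 without old replicate 1, in a range of -0.32 to 0.047. With the replicate block 2 genes and 437 of all genes were called, and it changed no call of the 10 genes; the replicate numbers do not pair the mice (correlations of deviations 0.17, -0.118, 0.088 and -0.024). The counts of related genes under the threshold fell on TPM from 10 to 6 for the other genes of the state, from 4 to 2 for signaling, from 10 to 3 for partners and from 2 to 0 for homeostatic genes. The causes were not tested.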

Other observations

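Further genes of the same microglial state, chosen after their values were seen, are given here. Ccl6, a chemokine gene, was at 0.498 to 0.893 CPM in 4 young mice, 4.83 CPM in young replicate 4 and 1.76 to 3.24 CPM at the old age, and differed by 0.76 on the log2 scale with all mice (edgeR, adjusted p = 0.578) and by 2.06 without young replicate 4 (edgeR, adjusted p = 7.2e-05). Ccl3, another chemokine gene, was at 0 to 0.261, 1.45 and 0.637 to 1.26 CPM, respectively. The lectin receptor gene Cd22 was at 0 to 0.314, 1.59 and 0.797 to 2.19 CPM. In contrast, Fth1, the ferritin heavy chain gene, lay within the range of the other young mice in young replicate 4 (1469 CPM against 1330 to 1480 CPM) and rose to 1714 to 2178 CPM in the old mice (log2 fold change 0.45; edgeR, adjusted p = 0.00126).

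Of 5 astrocyte markers, 0 had an adjusted p under 0.05 in edgeR (1 at an unadjusted p under 0.05, and 1 at an adjusted p under 0.05 in DESeq2). Of 6 markers of meningeal fibroblasts, 0 had an adjusted p under 0.05 in edgeR (0 unadjusted, and 0 in DESeq2). Of 4 markers each of oligodendrocytes, their precursors and neurons, 2, 1 and 1 passed in edgeR, with Mobp at 0.33 and Mog, C1ql1 and Map2 at -0.22, -0.43 and -0.14 on the log2 scale.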
